A study of Homo sapiens with 8 samples.

Results

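TBX1, TBX2, TBX3, TBX5 and TBX20 are the T-box transcription factor genes best known for their roles in heart formation, and accessible chromatin around them was followed across human cardiac differentiation. Every ATAC-seq peak that overlapped a gene's span or the 100 kb on either side was taken, and peaks of different libraries that overlapped or touched were merged into 1 region. This gave 173 regions of 285853 in the genome: 37 at TBX1, 41 at TBX2, 38 at TBX3, 37 at TBX5 and 20 at TBX20, with no region in more than 1 window. The rule used position only and no measured level.

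T-box proteins share a DNA-binding domain that recognises short elements with the core AGGTGT. In the developing heart TBX5 and TBX20 act in the chamber muscle and the septa together with GATA4 and NKX2-5, whereas TBX2 and TBX3 act mainly as repressors that keep the atrioventricular canal and the conduction system from taking on a chamber identity. TBX1 acts in the pharyngeal and outflow tract progenitors. Genes of this kind are commonly surrounded by distal regulatory elements, some of them far from the start.

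The cells belonged to RUES2, an established line of human embryonic stem cells, carried through a monolayer differentiation in 4 stages with 2 replicate libraries each. The stages were hESC (day 0, labelled ESC), mesoderm (MES, day 2), cardiac progenitor (CP, day 5) and cardiomyocyte (CM, day 14). All cells, those of day 0 included, had been given the Wnt activator CHIR-99021 the day before day 0. MES cells had received more CHIR-99021, CP cells then the Wnt inhibitor Xav-939, and CM cells later RPMI with B27 and no inhibitor. All libraries come from 1 line in one culture system, and the labels give no purity of the stages.

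In ATAC-seq a transposase cuts open DNA, and a peak marks a site where cuts pile up over the local background. The lists held 55777 to 156179 peaks, CM replicate 2 having the shortest and MES replicate 2 the longest, and the genome mean of the pileup recovered from them ranged from 2.54 to 4.62 reads, lowest in CM replicate 2 and highest in hESC replicate 2. The value given for a region is the fold, the ratio of the pileup at its summit to the background around it. The −log10 q of a peak was at least 2.01 in every list. A region without a value in a library was not called there, which is not a measurement of closed chromatin. Stage markers at their canonical starts were partly in place: a peak at MYH6 was listed in CP replicate 2 and both CM libraries only, MYL7 lacked one in hESC only, and the NANOG peak was listed in both hESC and both MES libraries but in no CP or CM library. Of the other CM markers, TNNT2 and ACTN2 had a peak in all libraries and NPPA in CM replicate 1 only. TNNI1 was highest in CP (5.68 and 10.1), at 2.90 in CM replicate 1 and absent from CM replicate 2. Of the hESC markers, LIN28A had a peak in all libraries and DPPA4 lacked one in CM replicate 1 only. The 4 CP markers had a peak in all libraries, except GATA4 in hESC replicate 1. The POU5F1 start had no peak in any library, and all 4 MES markers had a peak in all libraries, so that starts alone do not identify each stage. Of the markers of other cell types, 0 of 3 endothelial, 2 of 3 stromal, 3 of 3 neural and 1 of 3 endoderm genes had a start peak in both CM libraries, and their part in the results was not tested.

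The sequences below are 200 bases of the GRCh38 plus strand centred on the summit of the regions on which the results turn. All distances in their labels are from the gene's canonical start, which at TBX1 and TBX5 lies inside the gene's span and not at its edge. For TBX2, TBX3, TBX5 and TBX20, this is the strongest region outside exons with a peak in both CM and neither hESC library. TBX1 had no such region, so its distal region of highest −log10 q is shown, and the same was done in addition for TBX3 and TBX5. Capitals mark matches on either strand to 6 short motifs: AGGTGT for T-box factors, AGATAA for the GATA family, TNAAGTG for the NKX family, the octamer ATGCAAAT, TAAAAATA for MEF2 and CATTCC for TEAD factors.
TBX1, 55.2 kb upstream of the gene, chr22:19705470-19705669: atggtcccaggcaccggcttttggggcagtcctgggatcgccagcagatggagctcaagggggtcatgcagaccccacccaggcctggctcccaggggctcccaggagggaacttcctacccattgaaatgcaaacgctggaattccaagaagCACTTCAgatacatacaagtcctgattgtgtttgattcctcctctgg
TBX2, 32.9 kb upstream of the gene, chr17:61366889-61367088: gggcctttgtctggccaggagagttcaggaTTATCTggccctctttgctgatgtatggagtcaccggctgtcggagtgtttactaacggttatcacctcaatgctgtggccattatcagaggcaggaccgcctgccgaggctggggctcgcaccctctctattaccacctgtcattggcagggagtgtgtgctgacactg
TBX3, 20.1 kb upstream of the gene, chr12:114704214-114704413: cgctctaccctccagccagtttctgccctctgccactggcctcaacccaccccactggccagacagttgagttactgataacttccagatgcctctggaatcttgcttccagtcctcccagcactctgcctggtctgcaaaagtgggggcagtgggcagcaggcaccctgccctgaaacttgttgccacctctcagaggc
TBX3, 44.9 kb downstream of the gene's start, chr12:114639148-114639347: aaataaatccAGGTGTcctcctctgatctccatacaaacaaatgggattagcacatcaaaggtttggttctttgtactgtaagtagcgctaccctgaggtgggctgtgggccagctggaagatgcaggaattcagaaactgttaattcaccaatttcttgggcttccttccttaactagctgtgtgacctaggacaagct
TBX5, 44.4 kb into the gene, chr12:114361602-114361801: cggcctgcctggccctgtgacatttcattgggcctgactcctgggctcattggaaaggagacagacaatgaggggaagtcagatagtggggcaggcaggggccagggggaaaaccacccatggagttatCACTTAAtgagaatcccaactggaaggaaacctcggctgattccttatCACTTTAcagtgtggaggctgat
TBX5, 70.4 kb downstream of the gene's start, chr12:114335678-114335877: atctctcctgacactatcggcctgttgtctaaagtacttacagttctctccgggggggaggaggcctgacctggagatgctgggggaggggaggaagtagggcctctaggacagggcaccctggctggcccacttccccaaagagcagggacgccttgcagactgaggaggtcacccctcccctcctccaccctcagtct
TBX20, 78.1 kb upstream of the gene, chr7:35332084-35332283: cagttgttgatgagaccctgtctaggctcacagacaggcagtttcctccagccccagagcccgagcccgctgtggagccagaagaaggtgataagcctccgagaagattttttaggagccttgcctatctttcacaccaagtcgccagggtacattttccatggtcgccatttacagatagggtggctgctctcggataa
The TBX2 sequence held 1 GATA match, the TBX5 intron 2 NKX matches, the TBX3 region downstream of the gene 1 T-box match and the TBX1 region 1 NKX match. The other 3 sequences held none of the 6 motifs. A match is a description of letters, and its absence says nothing about a factor.

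TBX20, needed for the growth and function of chamber muscle, had 4 of its 20 regions (20.0%) listed in both CM and neither hESC library, beside 3.15% of all regions of the genome. A region 78.1 kb upstream of the start (chr7:35331831-35332587), intergenic, had no peak in either hESC library. Its fold was 8.33 and 9.85 (MES), 7.75 and 9.50 (CP) and 8.76 and 8.04 (CM). It was thus listed from MES on at a level that overlapped among the later stages, and its −log10 q reached 82.8 in CP replicate 2. In bulk chromatin, more cells with an open site and a more open site in each cell cannot be told apart.

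A neighbouring TBX20 region 82.6 kb upstream (chr7:35336442-35336879) had no peak in the 4 hESC and MES libraries. Its CP folds were 5.34 and 6.46 and its CM folds 5.02 and 5.06. The region 49.0 kb upstream (chr7:35302832-35303296) was again absent from hESC only, with folds of 3.71 and 6.09 (MES), 3.86 and 5.83 (CP) and 3.97 and 4.49 (CM). On the other side of the gene, 80.8 kb downstream of the start and beyond its 3′ end, chr7:35173169-35173542 was listed in the CM libraries alone, at 9.51 and 7.07. These 4 regions entered the lists at different stages, with 2 first listed in MES, 1 in CP and 1 in CM.

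A single named TBX20 region went the other way. In an intron 12.0 kb into the gene (chr7:35241935-35242235), folds were 4.36 and 6.94 in hESC and 5.20 and 4.66 in MES, and no peak was listed in CP or CM. A region 67.9 kb downstream (chr7:35185648-35187228), in an exon of a noncoding gene, was listed in all 8 libraries and barely varied, from 7.69 to 8.60.

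**Figure D1:**
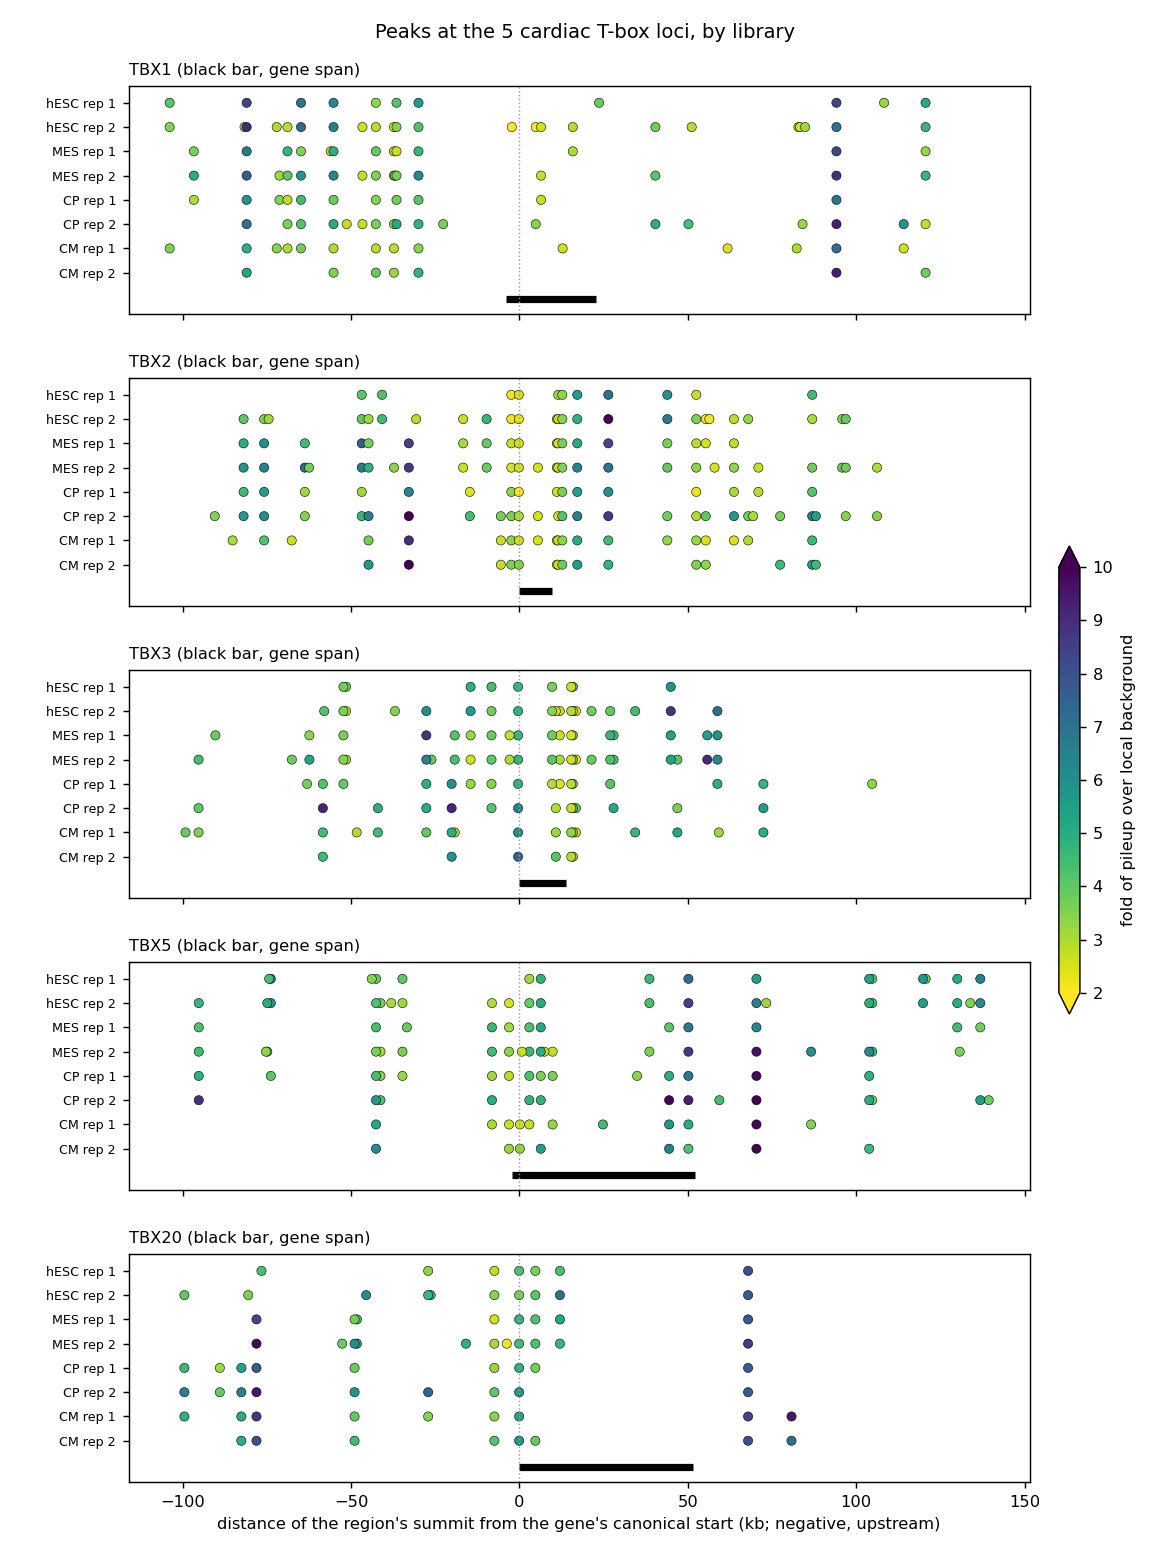
Every peak at the 5 loci, with the distance of the region's summit from the gene's canonical start in kb on the horizontal axis, 1 line of points for each library, and the fold of pileup over local background as colour. At TBX20 the dark points 78.1 kb upstream begin in MES and those 80.8 kb downstream are in CM only, whereas the points at 67.9 kb run through all 8 libraries.

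TBX2 encodes a repressor of the chamber programme. The strongest distal region at its locus lay 32.9 kb upstream (chr17:61366707-61367326), in an intron of the neighbouring gene BCAS3. No peak was listed there in hESC, and the fold was 8.47 and 8.71 (MES), 6.32 and 11.3 (CP) and 8.97 and 10.6 (CM). A weaker region 5.5 kb upstream (chr17:61394082-61394509) was listed in CP replicate 2 at 3.65 and in CM at 2.71 and 2.77. It had no peak in the other 5 libraries.

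Further upstream, also within BCAS3, chr17:61352466-61353268 had folds of 4.01 and 3.95 (hESC), 7.72 and 6.65 (MES), and 3.16 and 4.68 (CP). It had no peak in CM, and its MES values lay above those of both neighbouring stages. The region 40.8 kb upstream (chr17:61358908-61359216) was listed in hESC alone, at 4.25 and 4.51. BCAS3 introns thus held regions listed in hESC only, up to CP, and from MES on.

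TBX3, the closest relative of TBX2, had 38 regions, all nearest to its own start among protein-coding starts. The intergenic region 20.1 kb upstream (chr12:114703787-114704558) had no peak in hESC or MES, and folds of 5.93 and 9.16 (CP) and 4.97 and 5.86 (CM). A region 58.4 kb upstream (chr12:114742246-114742718) behaved alike, with 4.19 and 9.21 (CP) and 4.47 and 4.58 (CM). There, however, hESC replicate 2 had a separate peak of fold 4.24 that ended just short of it (chr12:114742013-114742237) and was not merged with it. In both regions CP replicate 2 was the highest library, and the other CP library lay near the CM values.

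Other TBX3 regions were listed in hESC and not in CM, on either side of the gene. The region 44.9 kb downstream of the start (chr12:114638748-114639428) had folds of 5.86 and 8.77 in hESC and 5.36 and 5.28 in MES, and no peak in CP or CM. A region 14.5 kb upstream (chr12:114698183-114699100) was at 4.89 and 5.57 (hESC), 3.23 and 2.62 (MES) and 3.31 (CP replicate 1), and was absent from CP replicate 2 and CM. Another, 8.3 kb upstream (chr12:114692009-114692851), ranged from 3.45 to 4.43 in the 6 hESC, MES and CP libraries and was absent from both CM lists. TBX3 also held 3 of the 4 regions listed in both MES libraries and nowhere else, 2.9 kb and 62.4 kb upstream and 55.8 kb downstream of its start. Such regions made up 2.31% at the 5 loci, beside 2.76% of all regions.

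TBX5, whose dose is limiting for septation and for the chamber muscle, had its strongest region 70.4 kb downstream of the canonical start, beyond the 3′ end (chr12:114335388-114336142). It was listed in every library, with folds of 5.53 and 6.53 (hESC), 6.28 and 9.65 (MES), 9.86 and 12.9 (CP) and 9.96 and 10.7 (CM). The CP and CM values lay above all hESC and MES values, and the −log10 q of 99.2 in CP replicate 2 was the highest of any region at the 5 loci. An intronic region 44.4 kb into TBX5 (chr12:114361402-114362219) had no peak in hESC or MES replicate 2. It was at 4.04 in MES replicate 1, 4.91 and 12.6 in CP and 5.69 and 6.48 in CM.

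TBX5 also had the most regions listed in both hESC libraries and neither CM library, 7 of its 37 (18.9%, beside 13.5% of all regions). TBX3 was close, with 6 of its 38 (15.8%). The 3 strongest lay far from the start. The region 136.8 kb downstream (chr12:114269158-114269545) had folds of 6.60 and 6.06 in hESC, 3.73 in MES replicate 1 and 5.44 in CP replicate 2. The region 73.8 kb upstream (chr12:114479848-114480122) was at 6.61 and 5.66 in hESC and at 4.07 in CP replicate 1. The third, 119.8 kb downstream (chr12:114286192-114286515), was listed in hESC alone, at 5.74 and 5.49.

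At TBX1 0 of the 37 regions were listed in both CM and neither hESC library, and 30 of them were nearer to the start of another protein-coding gene. Only 3 of its regions lay in a TBX1 intron. Its single region listed in both hESC and neither CM library was at the start of GP1BB, a platelet glycoprotein gene (chr22:19724009-19724564), with folds of 4.20 and 3.49 (hESC), 2.67 and 3.68 (MES) and 3.78 and 5.14 (CP).

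**Figure D2:**
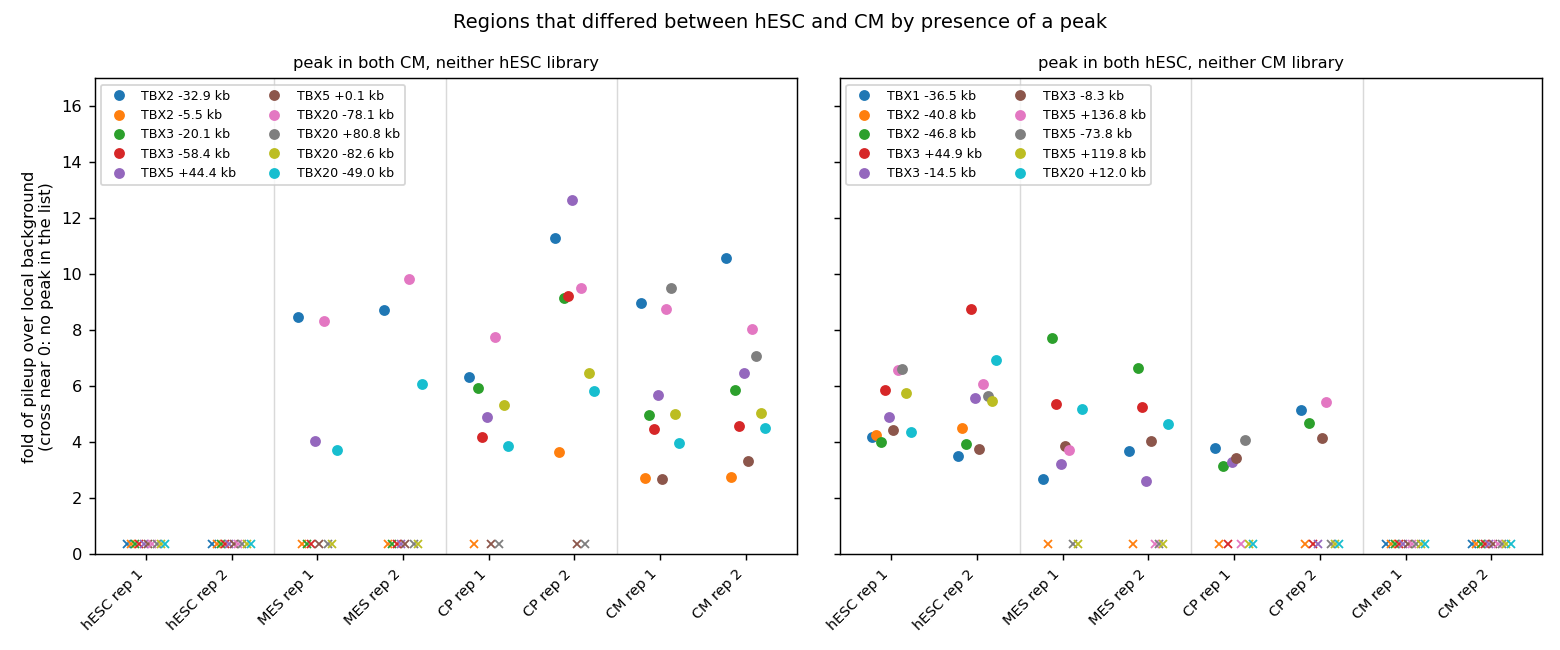
Fold of pileup over local background in each of the 8 libraries for the 10 regions listed in both CM and neither hESC library (left) and for 10 of the 17 listed in both hESC and neither CM library (right), each named by its gene and distance from the start, with crosses for libraries without a peak. On the left the points begin in MES, CP or CM depending on the region and on the right they end before CM.

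Counted over all 5 loci, 10 of 173 regions (5.78%) had a peak in both CM libraries and neither hESC library, beside the 3.15% of all regions. They were 4 at TBX20, 2 each at TBX2, TBX3 and TBX5, and 0 at TBX1. In the opposite direction the count was 17 (9.83%), beside 13.5% of all regions, with 7 at TBX5, 6 at TBX3, 2 at TBX2 and 1 each at TBX1 and TBX20. No test was made of these counts, since 2 libraries against 2 cannot give an exact p-value below 0.05. CM replicate 2 had the shortest list, whose part in the gains and losses cannot be told apart from the stage. With lists cut to equal length the balance turned, with 19 regions in CM and not hESC (beside 9.06% of all regions) and 9 the other way (beside 12.0%). Of the regions above, 9 of the 10 regions first listed after hESC and 6 of the 10 named regions lost by CM met the same rule on these lists. The 1 that did not among the former was the weak peak at the TBX5 start.

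Step by step, 11 regions appeared and 5 disappeared from hESC to MES, beside 6.02% and 3.96% of all regions, or 6.36% and 2.89% at the 5 loci. TBX3 gave 5 of the 11 and TBX20 3. From MES to CP, 7 appeared and 9 disappeared (4.05% and 5.20%, beside 2.14% and 6.13%). TBX3 and TBX20 gave 3 each of the former and TBX3 5 of the latter, whereas TBX1 and TBX5 gave 0 in both directions. From CP to CM, 2 appeared and 9 disappeared (1.16% and 5.20%, beside 1.41% and 6.34%), and the appearing regions were the downstream region of TBX20 and the TBX5 start. The share that appeared from MES to CP was above the background, and the other shares of these steps lay near it or below. That share rested on 7 regions, was not tested and depended on the CP library. The count was 24 without CP replicate 1 (beside 11.4% of all regions) and 11 without CP replicate 2 (beside 7.63%).

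Regions with alike replicates in every stage were a minority at these loci as elsewhere, since in 131 of 173 (75.7%, beside 76.7% of all regions) the replicates of at least 1 stage differed. Among the rest, 20 had a peak in all 8 libraries (11.6%, beside 9.84%), 3 were listed in MES, CP and CM but not hESC (1.73%, beside 0.367%), and 3 in CP and CM only (1.73%, beside 0.448%). The former 3 were the TBX2 region 32.9 kb upstream and the TBX20 regions 78.1 kb and 49.0 kb upstream. The latter 3 were at TBX3, with 2, and at TBX20. Regions in a single library made up 34.1% at the 5 loci and 40.7% in the genome. The median width was 374 bp, beside 326 bp.

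The start peaks of TBX2, TBX3 and TBX20 were listed in all 8 libraries. TBX3 had the highest start peak in 6 libraries and TBX20 in MES replicate 1 and CP replicate 1. The TBX3 folds were 4.71 and 4.83 (hESC), 4.73 and 4.73 (MES), 4.83 and 6.44 (CP) and 5.99 and 7.43 (CM) (chr12:114683955-114685112). At the TBX20 start (chr7:35253762-35254796) the fold was 4.26 and 3.66 (hESC), 4.77 and 4.44 (MES), 4.85 and 5.76 (CP) and 5.22 and 5.77 (CM). At both starts the CM libraries lay above all hESC and MES libraries, but neither passed the test across regions (log2 CM minus hESC 0.48 ± 0.20 SE at TBX3, limma adjusted p = 0.181, and 0.48 ± 0.19 SE at TBX20, adjusted p = 0.151).

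The TBX2 start (chr17:61399007-61399990) was lower, at 2.47 and 2.33 (hESC), 2.58 and 2.62 (MES), 1.98 and 2.91 (CP) and 2.62 and 3.48 (CM). The hESC libraries lay below those of MES and CM and within the range of CP, and the difference between CM and hESC of 0.33 ± 0.18 (SE) on the log2 scale did not pass (adjusted p = 0.317). At the canonical TBX5 start a weak peak was listed in both CM libraries, at 2.68 and 3.34 (chr12:114405959-114406207), and a separate peak 0.7 kb into the gene in MES replicate 2 at 2.64. A more constant peak lay 2.9 kb into TBX5, near the start of another of its transcripts, at 2.77 to 4.80 in 7 libraries with none in CM replicate 2. A further TBX5 region at an alternative start, 3.1 kb upstream of the canonical one, was at 2.55 to 3.43 in 6 libraries. It had no peak in hESC replicate 1 or CP replicate 2. No library had a peak within 1 kb of the canonical TBX1 start, though 1 region lay within 1 kb of the start of another TBX1 transcript. In order of the start fold in CM, TBX3 lay above TBX20 by less than the difference between its own libraries, and both lay above TBX2 and TBX5, which overlapped.

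The genes whose start pattern was most like that of a member over the 8 libraries, by Pearson's r of the log2 fold, are given as a description only, because all points share the libraries and their depth. A library with no start peak entered at a fold of 1, which is no measurement. For TBX5, with a start peak in 3 libraries, r therefore reflects mainly which libraries had one. The gene most like it was HRC (1.00), which encodes a calcium-binding protein of the sarcoplasmic reticulum and had a start peak in the same 3 libraries, at 2.95 in MES replicate 2 and 3.28 and 3.78 in CM. For TBX3 they were TCF7L1, a transcription factor of the Wnt pathway (1.00), ZFAND6 (0.97) and MID1IP1 (0.97). For TBX20 they were CLUH (0.98), RORB (0.98) and BCL2L11 (0.97), and for TBX2 UBE2Z (0.97), MAFF (0.96) and TIPARP (0.96). For TBX1, which had no peak at its canonical start, no pattern could be compared.

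Whether the level of constantly open regions moved was tested with limma on the log2 fold of the 28115 regions with a peak in all 8 libraries, of which 20 were at these loci. Of the 20, 1 rose and 3 fell from hESC to CM at an adjusted p below 0.05, beside 0.459% of all regions that rose and 6.53% that fell. The median over all regions was −0.12, so that differences are best read against it, and the median of the 20 was 0.10. Of all regions called, 6.56% were higher, beside 51.1% after centring on the median and 37.4% after quantile normalization. After centring, 7 of the 20 rose and 4 fell (beside 6.31% and 6.04% of all regions). After quantile normalization 5 rose and 3 fell (beside 3.71% and 6.21%).

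The region that rose lay 2.4 kb upstream of TBX2 (chr17:61396950-61397661). Its fold was 2.19 and 2.21 (hESC), 2.69 and 2.54 (MES), 3.35 and 3.59 (CP) and 3.37 and 3.59 (CM). The CP and CM libraries lay above all others, and the difference between CM and hESC was 0.66 ± 0.13 (SE, adjusted p = 0.0131). The 3 that fell were 1 at TBX2 and 2 at TBX1. The TBX2 region 26.4 kb downstream (chr17:61425646-61426410), between TBX2 and TBX4, had folds of 7.02 and 10.0 (hESC), 8.37 and 6.95 (MES), 6.04 and 8.72 (CP) and 4.45 and 4.77 (CM). Only the CM libraries lay below all others, and the log2 fold decreased by 0.86 ± 0.23 (SE, adjusted p = 0.0477).

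At TBX1 the region 55.2 kb upstream (chr22:19705204-19705865) was at 6.22 and 6.57 (hESC), 4.91 and 6.28 (MES), 3.87 and 5.02 (CP) and 3.00 and 3.51 (CM). The CM libraries were the lowest, and MES replicate 2 lay between the hESC libraries, with a log2 difference of −0.98 ± 0.21 (SE, adjusted p = 0.0198). The region 81.0 kb upstream (chr22:19679403-19680096) had folds of 8.37 and 9.12 (hESC), 6.78 and 7.71 (MES), 5.98 and 7.05 (CP) and 4.94 and 5.25 (CM). There both hESC libraries lay above all others and both CM libraries below, and the difference was −0.78 ± 0.18 (SE, adjusted p = 0.0275). Both regions were nearest to the start of SEPTIN5, not TBX1. None of the 4 passed when an hESC or a CM library was left out, with log2 differences that kept their sign. They ranged from 0.62 to 0.71 at the TBX2 region that rose, −0.61 (without hESC replicate 2) to −1.12 (without hESC replicate 1) at the TBX2 region that fell, −0.87 to −1.09 at TBX1 55.2 kb upstream and −0.72 to −0.84 at 81.0 kb. The TBX2 region that fell also missed the threshold without MES replicate 1 (adjusted p = 0.0556).

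The TBX5 region 70.4 kb downstream missed the threshold, with a difference of 0.78 ± 0.22 (SE, adjusted p = 0.0531). So did a TBX5 coding exon region 50.2 kb into the gene (chr12:114355501-114356157), with −0.77 ± 0.21 (SE, adjusted p = 0.0538). Its fold was 7.27 and 8.50 (hESC), 6.78 and 8.71 (MES), 6.84 and 9.29 (CP) and 5.05 and 4.24 (CM), so that only CM lay apart. In the single steps no member region passed: the lowest adjusted p was 0.835 from hESC to MES (0.189% of all regions called), 0.48 from MES to CP (0.0% called) and 0.066 from CP to CM (3.5% called). At an unadjusted p below 0.05 the counts of members were 0, 2 and 2 of 20, beside 6.48%, 6.26% and 21.4% of all regions.

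**Figure D3:**
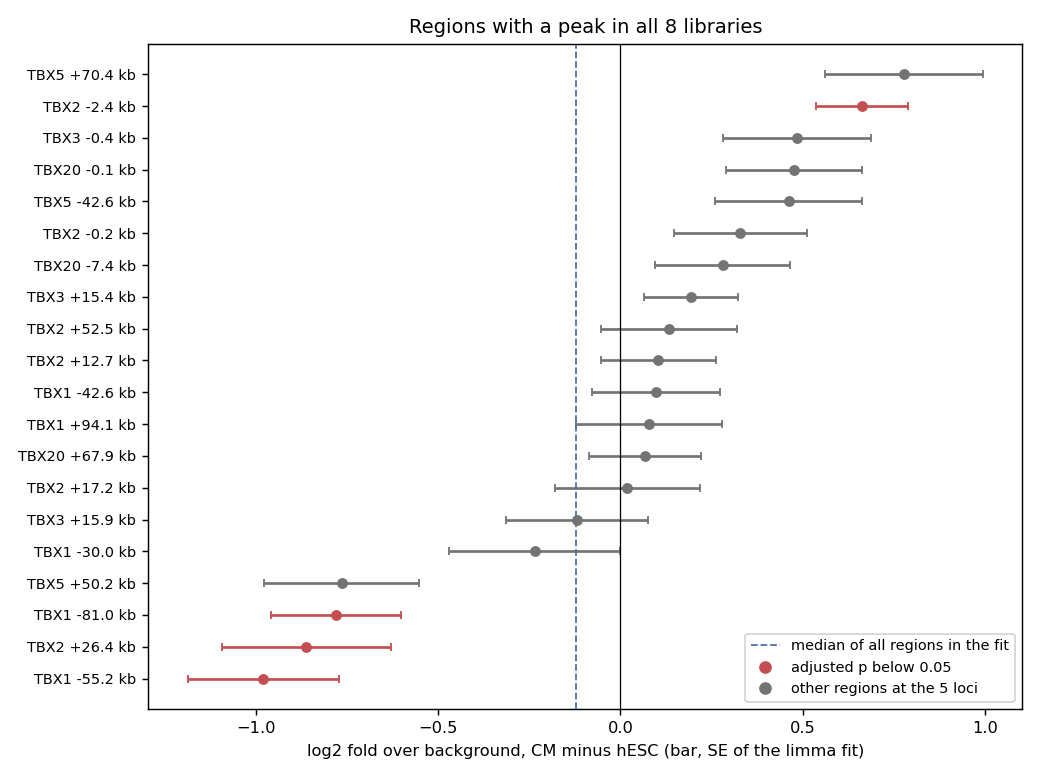
Log2 fold over background in CM minus hESC for the 20 regions at the 5 loci with a peak in all 8 libraries, with bars of 1 SE of the limma fit and a dashed line at the median of all 28115 regions. The red points are the TBX2 region 2.4 kb upstream on the right and 2 TBX1 regions and 1 TBX2 region on the left.

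Whole loci were compared by the number of peaks in the window. At TBX2 the libraries held 11 and 27 peaks (hESC), 19 and 28 (MES), 17 and 27 (CP) and 21 and 15 (CM), so that the raw numbers overlapped between all stages. Because the lists differ in length, the number was also expressed per 100000 peaks of the list. On this scale TBX2 was at 14.0 ± 4.69 for hESC, 17.7 ± 0.276 for MES, 19.8 ± 3.85 for CP and 24.8 ± 3.00 for CM (SD, n = 2). The share was higher in CM than in hESC by 0.86 ± 0.23 (SE) on the log2 scale in a limma fit over 18899 protein-coding genes (adjusted p = 0.00896), beside 9.68% of genes called higher and 3.2% called lower.

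This rise was one of share and not of number, since without scaling to the list the TBX2 difference was 0.04 (adjusted p = 0.946). Without hESC replicate 1 it was 0.53 (adjusted p = 0.213) and without CM replicate 2 0.73 (adjusted p = 0.0772), so that either library decided the call. The covered length at TBX2 went from 5038 and 11529 bp in hESC to 7464 and 5875 bp in CM. The mean fold of the peaks was 4.09 and 3.56 in hESC and 3.50 and 4.46 in CM. Of the 41 regions, 16 were nearest to TBX4, whose window overlaps that of TBX2.

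The other 4 loci did not pass from hESC to CM, with the median over all genes at 0.24. TBX20 held 10 and 12 peaks in hESC and 10 and 8 in CM, and its share differed by 0.54 ± 0.27 (SE, adjusted p = 0.163). TBX3 held 10 and 20 in hESC and 17 and 7 in CM, with 0.46 ± 0.24 (SE, adjusted p = 0.179). The TBX1 share differed by 0.25 ± 0.25 (SE, adjusted p = 0.501) and that of TBX5, with 16 and 21 peaks in hESC and 11 and 8 in CM, by −0.11 ± 0.24 (SE, adjusted p = 0.787). With no scaling, which moved the median over all genes to −0.58, the differences at TBX1, TBX3 and TBX20 were below 0, TBX5 was at −0.93 (adjusted p = 0.0981), and 0.0% of the genes called were higher, beside 75.2% with scaling. In the steps from hESC to MES, MES to CP and CP to CM, 0 of the 5 loci passed in the limma fit (0.0317%, 0.0% and 1.03% of genes called), and 1, 0 and 1 did so at an unadjusted p below 0.05, beside 5.3%, 5.8% and 17.9% of genes.

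The motifs were counted in the 200 bases around the summit of each region. GATA was found in 17 of 173 regions (9.83%, beside 11.3% of all regions), T-box in 15 (8.67%, beside 13.2%), NKX in 13 (7.51%, beside 10.3%) and TEAD in 18 (10.4%, beside 14.6%). The octamer and MEF2 were in 1 region each (0.578%, beside 1.65% and 0.844%). Each share at the 5 loci was below that of all regions. Of the 10 regions listed in CM and not in hESC, 4 held GATA, 1 NKX and 0 the T-box motif, where all such regions of the genome held them in 30.5%, 18.4% and 10.3%. Of the 17 lost by CM, 3 held the T-box motif (14.0% of all such regions), 0 GATA (7.21%) and 0 the octamer (4.04%). TBX20 had GATA in 5 and NKX in 0 of its 20 regions, and TBX5 had NKX in 5 and GATA in 3 of 37. Each gene was picked as the highest for its motif, and no test was made.

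Genes of the same family and pathway were read with the same locus fit. Of 12 other T-box genes 11 were tested, and from hESC to CM the share rose at 1, TBX4 (0.94), which shares peaks with TBX2, and fell at 1, TBR1, a neural gene (−0.87). Beside these, 9.68% of all genes were called higher and 3.2% lower. The median difference of the 11 was 0.30. TBX22, a palate gene, had too few peaks for the test, and its start peak went from 10.1 and 8.58 (hESC) and 8.99 and 11.1 (MES) to 4.91 and 4.96 (CP) and to no peak in CM. Of 6 partner genes, the share of the list rose at 3, beside 9.68% of all genes, namely at GATA6 (1.79), NKX2-5 (0.74) and GATA4 (0.57), with a median of 0.51. The numbers of peaks were 5 and 11 in hESC and 19 and 12 in CM at GATA6, 16 and 21 against 20 and 15 at NKX2-5, and 25 and 38 against 32 and 21 at GATA4, so that they overlapped at the latter 2. Of 7 known or proposed targets none passed in the limma fit, with a median of 0.23, and NPPA, the atrial natriuretic peptide gene, had a start peak only in CM replicate 1 (3.11).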

How the data were processed

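Accessibility was measured by ATAC-seq in 8 libraries of RUES2 cells, 2 for each of 4 stages. Per the labels and the study's methods, the authors mapped reads to hg38 with BWA (0.7.13), removed low-quality alignments and duplicates (Picard), and ran the peak caller MACS2 (2.1.0) on every library by itself, with bedtools (2.26.0) also named in the submitters' processing notes. The deposited lists give for each peak the fold (a ratio of pileup to background around the peak) with its −log10 p-value and −log10 q-value, but no read counts. Read depth is therefore known only through the genome mean of the pileup, and a deeper library passes the q threshold at weaker sites.

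Peaks on chromosomes 1 to 22 and X were merged by overlap over the libraries, and the peak of highest −log10 q gave a region its value in a library. Genes, canonical starts and exons came from GENCODE 44 and sequence from GRCh38, and 0 peaks ran past the end of a chromosome. The regions, lists and tests were chosen with earlier results of these data known. The measures compared were presence (both libraries of 1 stage and neither of the other, no test), the share of a list's peaks in a window (log2 of peaks + 0.5 per 100000 peaks, for genes with a mean of at least 4), and the log2 fold of regions listed in all 8 libraries. The last 2 were fitted with limma 3.58.1 (R 4.3.3), all stages sharing 1 estimate of the spread, with Benjamini-Hochberg adjustment over all genes or regions of a contrast. Windows of neighbouring genes overlap, so genes are not independent.

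Regions named were drawn from those at the canonical starts, the 3 of highest −log10 q per gene away from starts, up to 5 listed in CM and not hESC and up to 3 the other way per gene, and those past the threshold. Some of highest −log10 q were not described above. These were TBX2 17.2 kb downstream (all 8 libraries, fold 4.85 to 6.58) and 86.9 kb downstream (no peak in MES replicate 1). The others were TBX5 95.2 kb upstream (no peak in hESC replicate 1 or CM) and TBX1 64.9 kb upstream (no peak in CM replicate 2). Others named (the constant TBX20 and TBX5 exon regions, MES-only TBX3 regions and the TBX5 regions at alternative starts) were chosen after their values were seen. On simulated data, the window fit recovered 83.5% of 200 genes changed by a log2 of 2.0 among 18899, and the region fit 100.0% of 200 regions changed by 1.5 among 28115. The simulated window counts had Poisson noise only, and the changed genes were taken from those with more peaks. The simulated regions all had the same spread. These sizes were larger than any member difference from hESC to CM in the main fits, so recovery of smaller changes was not tested.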

Additional observations from a re-analysis of the deposited data

How the results depend on the processing

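Presence counts changed with the settings (the share of all regions follows in parentheses). Counting a peak in either library as present, 36 regions appeared and 34 disappeared from hESC to MES (21.3% and 21.1%), 28 and 33 from MES to CP (16.1% and 24.1%), 16 and 40 from CP to CM (11.0% and 26.1%), and 30 and 57 from hESC to CM (14.3% and 37.2%). With lists of equal length the counts were 6 and 8 from hESC to MES (7.33% and 5.94%), 2 lost from MES to CP (5.67%), 10 and 4 from CP to CM (4.56% and 5.17%), and 19 and 9 from hESC to CM (9.06% and 12.0%). With a 50 kb window, of fewer member regions, they were 7 and 2 from hESC to MES (6.02% and 3.96%) and 2 gained from MES to CP (2.14%). There were 5 lost from CP to CM (6.34%) and 10 lost from hESC to CM (13.5%). The shares of all regions do not depend on the window, so these counts cannot be compared with those of the main window. Merging by summits gave 18 and 8 from hESC to MES (5.31% and 3.48%), 14 lost from MES to CP (5.34%) and 4 gained from CP to CM (1.29%), and a −log10 q of at least 5 gave 1 gained from CP to CM (1.39%). Leaving out 1 library in turn, which lets a single library stand for its stage, gave 11 to 32 gained and 5 to 28 lost from hESC to MES (6.12% to 18.6% and 4.02% to 18.4%), 7 to 24 and 9 to 28 from MES to CP (2.18% to 11.4% and 6.23% to 20.9%), 2 to 16 and 9 to 25 from CP to CM (1.44% to 9.04% and 6.48% to 19.1%), and 10 to 28 and 17 to 51 from hESC to CM (3.22% to 12.0% and 13.8% to 33.9%). The 28 was without CM replicate 2 and the 51 without hESC replicate 1.

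In the fit of regions open in all libraries, members that rose and fell from hESC to CM numbered 7 and 11 of 114 with the lowest fold filled in (3.81% and 16.2% of all regions), 5 (rose) with quantile normalization (3.71%), 7 (rose) centred on the median (6.31%), 3 and 1 on pileup over the genome mean (chosen after seeing the data, 1.17% and 14.8%), and between 0 and 2 rose and 0 to 4 fell without 1 library, with 0 in both directions without any 1 hESC or CM library. In single steps, members passed with the lowest fold filled in. From hESC to MES 10 rose and 3 fell (beside 8.56% and 5.68% of all regions). From MES to CP 4 rose and 6 fell (2.1% and 7.45%), and from CP to CM 1 rose (1.8%). On pileup 1 rose from MES to CP (0.427%). From CP to CM 2 rose when centred on the median (0.391%) and 1 fell with the replicate block (9.66%). The TBX2 region that rose missed the threshold with the lowest fold filled in (adjusted p = 0.11). So did the TBX2 region that fell (adjusted p = 0.0606, and −0.49 with adjusted p = 0.321 on pileup) and, on pileup, TBX1 81.0 kb upstream (adjusted p = 0.0857). The labels do not say whether equal replicate numbers mark shared samples, and not every pair of stages had deviations correlated above 0.1 (between −0.119 and 0.192). With the replicate block 2 members rose and 4 fell (1.14% and 12.1% of all regions), while the TBX2 locus difference of 0.86 passed (adjusted p = 0.0139).

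Unscaled locus differences were −0.57 at TBX1, 0.0378 at TBX2, −0.36 at TBX3, −0.93 at TBX5 and −0.28 at TBX20. With lists of equal length they were −0.10 at TBX1, 1.33 at TBX2 (adjusted p = 0.0453), 0.90 at TBX3, −0.31 at TBX5 and 1.34 at TBX20 (adjusted p = 0.0505), with 52.2% of the genes called being higher. TBX5 was at 0.67 with the 50 kb window and −0.53 with a −log10 q of at least 5. With the latter TBX20 was at 1.00 (limma adjusted p = 0.00491), beside 16.4% of genes called higher. Without 1 library the TBX2 difference ranged from 0.53 to 1.19, and those of the others from 0.04 to 0.47 at TBX1, 0.22 to 0.71 at TBX3, −0.26 to 0.0379 at TBX5 and 0.33 to 0.76 at TBX20. The cause of these changes was not tested. Without CM replicate 2, the shallowest library, 28 regions were gained and 21 lost by presence from hESC to CM (12.0% and 14.5% of all regions). With all libraries the counts were 10 and 17 (3.15% and 13.5%).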
